A study of Arabidopsis thaliana with 12 samples.

Results

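The 200 nuclear genes with the highest signal in xylose (Xyl)-grown *Arabidopsis thaliana* cells were described, together with their levels after fructose (Fru), glucose (Glc) or sucrose (Suc) was supplied for a short time. They were chosen by the mean log2 value of the 3 Xyl arrays. One probe set, a group of short DNA probes against one transcript, was taken per gene, namely the highest, and only probe sets that the platform's annotation names for 1 nuclear gene were used. Such probe sets covered 13270 genes, so that the 200 members are 200 of 13270. The choice used the Xyl values, and differences between a sugar and Xyl are therefore given below as a description only. Differences between Fru, Glc and Suc did not enter the choice.

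All 12 ATH1 arrays came from one habituated, root-derived suspension culture of *A. thaliana*, which needs no hormones and grew in the dark for 7 d on 87 mM Xyl. Cells then received 1 mM Fru, 1 mM Glc, 1 mM Suc or, as control, 1 mM Xyl for 1 h, with 3 arrays per sugar. The study's methods call these biological replicates. The culture is a single line without organs, and all 4 groups, the control included, carried the same Xyl background and dark growth. Deposited values are log2 RMA values, in which 1 unit is a doubling of the normalized signal.

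Signal is not a transcript number. Each probe set binds its target with its own strength, and no value is scaled to transcript length, so the order of the members is an order of array signals. In bulk RNA, a change in RNA per cell and a change in the share of cells that make it cannot be told apart. Growing plant cells are known to put much of their mRNA into protein synthesis, core carbon metabolism, the cytoskeleton and the loosening and building of the wall. Sugars are both fuel and signal in plants, and Xyl is a pentose that enters central metabolism by another route than the hexoses. Of the 200 members, 26 had a gene symbol in the reference table, and all others are given by locus identifier with no role.

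By the rule of choice, the members lay far above the median of the array. Their mean on the Xyl arrays ranged between 10.18 and 13.50, with a median of 10.87, while the median over all 22746 probe sets was 4.83. A mean above 12 was found for 27 members, and the middle part of the list, between its quartiles, spanned 10.47 to 11.52. On single arrays the lowest value of any member was 7.09, above the median of that array. The edge of the choice was flat, with a mean of 10.20 for *ATRBP45C* and 10.18 for AT2G21160 as the last members, and of 10.16 for AT2G15760 and 10.15 for AT1G63220 as the first genes outside. Many bright probe sets could not be members for want of a name: AT2G21160 stood at rank 510 among all probe sets, above which 269 had no gene name and 38 had several.

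**Figure D1:**
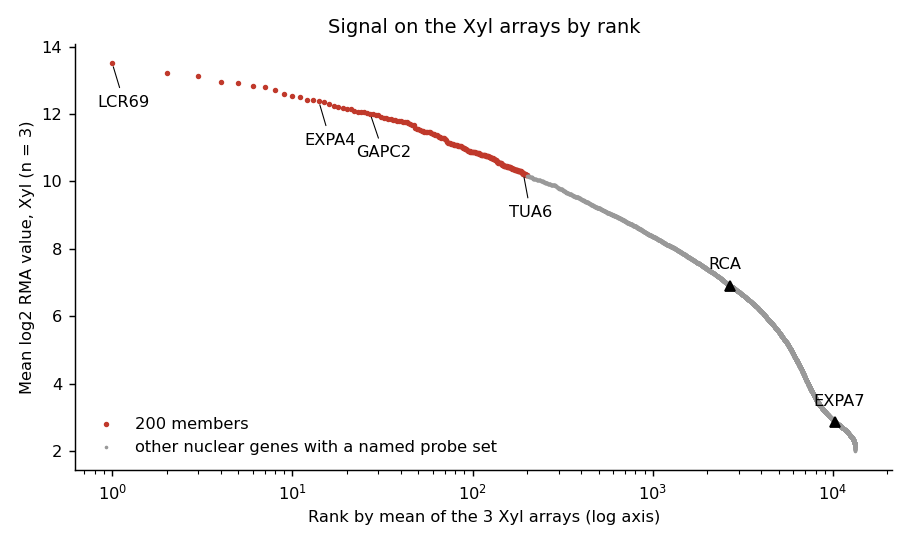
Mean log2 RMA value of the 3 Xyl arrays (vertical axis) against rank (log axis) for 13270 nuclear genes. The 200 members lie between 10.18 and 13.50, while the markers *RCA* and *EXPA7* (triangles) lie at ranks 2668 and 10287.

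The label of the culture could be set against few markers. Of 28 markers of photosynthetic, root hair, vascular, stem cell niche, dividing and seed cells, 2 had a named probe set. *RCA*, the activase of the carbon-fixing enzyme in green cells, had 6.36 to 7.61 on the Xyl arrays, above the array median. *EXPA7*, an expansin of root hairs, had 2.75 to 3.00, below the array median.

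Summed on the linear scale, the 200 members took about the same part of the signal with each sugar. RMA equalizes the distributions of the arrays, so shares of the brightest signals are held close by construction and are a description only. Their share of the signal of all probe sets was 14.8% ± 1.1 with Fru, 14.7% ± 1.1 with Glc, 15.0% ± 0.8 with Suc and 14.7% ± 0.8 with Xyl (SD, n = 3 each), although they are 0.879% of the probe sets. Between replicate numbers it differed more. The 4 arrays of replicate 1 averaged 15.2% ± 0.2, those of replicate 2 15.5% ± 0.1 and those of replicate 3 13.7% ± 0.3 (SD, n = 4 each). The 10 brightest members alone held between 2.09% and 2.34% on the 12 arrays.

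The brightest member was *LCR69*, also called *PDF2.2*, which encodes a small cysteine-rich protein of the plant defensin family. It had log2 values of 13.95, 13.64 and 12.82 with Fru, 13.77, 13.49 and 12.73 with Glc, 14.03, 13.71 and 12.94 with Suc and 13.99, 13.63 and 12.89 with Xyl (replicates 1, 2 and 3). Replicate 3 was lowest with every sugar, and the sugars overlapped. Suc exceeded Glc by 0.23 on the log2 scale, by 0.26, 0.22 and 0.22 within the 3 replicate numbers, with a standard error of 0.42 without and 0.08 with the replicate number as a block (adjusted p = 0.48 with the block in limma). AT5G62350, AT1G51200, AT2G38800, AT3G48140, AT5G20290 and AT3G28500 followed at ranks 2 to 7, with Xyl means between 12.81 and 13.22. *UBC28*, a ubiquitin-conjugating enzyme, stood at rank 8 and AT1G15930 and AT5G27700 at ranks 9 and 10, with Xyl means of 12.71, 12.59 and 12.55.

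Genes of carbon use among the members were *cICDH* (rank 21), *GAPC2* (rank 27) and *TPI* (rank 43). *GAPC2* and *TPI* encode cytosolic enzymes of glycolysis, and *cICDH* a cytosolic isocitrate dehydrogenase that makes NADPH. *GAPC2* had 12.03, 12.30 and 12.03 with Fru, 12.04, 12.01 and 11.75 with Glc, 11.93, 12.01 and 11.86 with Suc and 12.07, 12.04 and 11.90 with Xyl. All Fru arrays thus lay above all Suc arrays, with a difference of −0.18 between Suc and Fru (adjusted p = 0.49 with the block in limma). The 12 values of *TPI* ran between 11.13 and 12.26 and those of *cICDH* between 11.65 and 12.44. Both had their lowest values on the arrays of replicate 3. Among the 3 genes the widest differences from Xyl were 0.15 for *TPI* with Fru and −0.15 for *cICDH* with Suc.

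Among 19 genes of carbon use with a named probe set, found by letter patterns in their names, none passed an unadjusted p of 0.002 in any of the 6 comparisons, without or with the block. Since 0.0044% to 1.24% of all probe sets passed in those comparisons, a count of 0 in 19 genes sets them apart in no way. The median of their Xyl means was 8.27, well under the members. *PDC2*, a pyruvate decarboxylase of fermentation, followed the 3 members at rank 427 with a Xyl mean of 9.40, and *ENOC*, a cytosolic enolase, stood at rank 1010 with 8.36. *CYTC-1*, the electron carrier cytochrome c, stood at rank 71. Its values were 11.40, 11.37 and 11.13 with Fru, 11.42, 11.27 and 11.47 with Glc, 11.30, 11.28 and 11.43 with Suc and 11.20, 11.26 and 11.19 with Xyl. Glc and Suc lay above Xyl on all arrays, by 0.17 and 0.12, and Fru overlapped with Xyl.

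Several of the named members encode wall or secreted proteins. *EXPA4* (rank 14), an expansin that loosens the wall, had 12.72, 12.26 and 12.21 with Fru, 12.62, 12.35 and 11.93 with Glc, 12.55, 11.97 and 11.80 with Suc and 12.80, 12.28 and 12.04 with Xyl. Suc was lowest within every replicate number, by 0.29 against Fru and 0.19 against Glc on average (adjusted p = 0.34 and 0.69 with the block in limma). *EXLA1* (rank 118) is an expansin-like gene and *BGLU15* (rank 182) a member of the β-glucosidase family. *TBL39* (rank 45) and *TBL36* (rank 63) belong to a family whose known members add acetyl groups to wall polysaccharides. *RALFL33* (rank 158) encodes a RALF-like peptide, a class of small secreted signals read by receptor kinases. Of 84 wall genes with a named probe set, found by the same kind of letter patterns, which leave out the *TBL* genes and *RALFL33*, 3 were members, and the median Xyl mean of the 84 was 3.39. Without the block none of the 84 passed 0.002 in any comparison. With it, 1 was higher and 2 were lower with Glc than with Xyl (1.24% of all probe sets passed in either direction), 1 was lower with Suc than with Xyl (1.06%), 1 was higher and 2 were lower with Suc than with Glc (0.637%), 3 were lower with Suc than with Fru (0.585%), 1 was higher with Fru than with Glc (0.44%) and 0 passed for Fru against Xyl (1.09%). As parts of 84, these counts lay above the shares of all probe sets in every comparison but Fru against Xyl. Each rests on 1 to 3 genes, and whether they differ from the rest of the array was not tested.

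Other named members belong to protein synthesis, the nucleus and the cytoskeleton. *PGY1* (rank 103) encodes a ribosomal protein, *HTB4* (rank 101) a histone H2B and *ATRBP45C*, last but one in the list, an RNA-binding protein. *SCL21* (rank 89) and *ZAP1* (rank 180), also called *WRKY1*, are transcription factors of the GRAS and WRKY families. *TUA6* (rank 191) is an α-tubulin, *SPR1* (rank 179) a microtubule-associated protein and *WLIM2b* (rank 185) a LIM protein of the actin cytoskeleton. *HTB4* had 11.15, 10.72 and 10.03 with Fru, 10.94, 10.84 and 10.46 with Glc, 11.46, 10.98 and 10.56 with Suc and 11.21, 10.85 and 10.53 with Xyl. Suc was highest within each replicate number, and exceeded Fru by 0.37 and Glc by 0.25, while the groups overlapped (adjusted p = 0.32 and 0.65 with the block in limma).

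The other named members belong to stress responses and small metabolism. *PR-1-LIKE* (rank 131) resembles a pathogenesis-related protein, and *DI21* (rank 162) and *DI19* (rank 177) were named as drought-induced genes. *GRXC2* (rank 163) encodes a glutaredoxin, which reduces disulfides. *SAMDC* (rank 85), the decarboxylase that commits S-adenosylmethionine to polyamine synthesis, had 10.86, 10.55 and 10.96 with Fru, 10.60, 10.49 and 10.98 with Glc, 11.04, 10.79 and 11.03 with Suc and 11.07, 10.81 and 11.28 with Xyl. Xyl was highest within each replicate number, and the differences from it were −0.26 for Fru, −0.36 for Glc and −0.10 for Suc (standard error 0.17 without and 0.10 with the block). *SAH7* (rank 144) is named only.

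**Figure D2:**
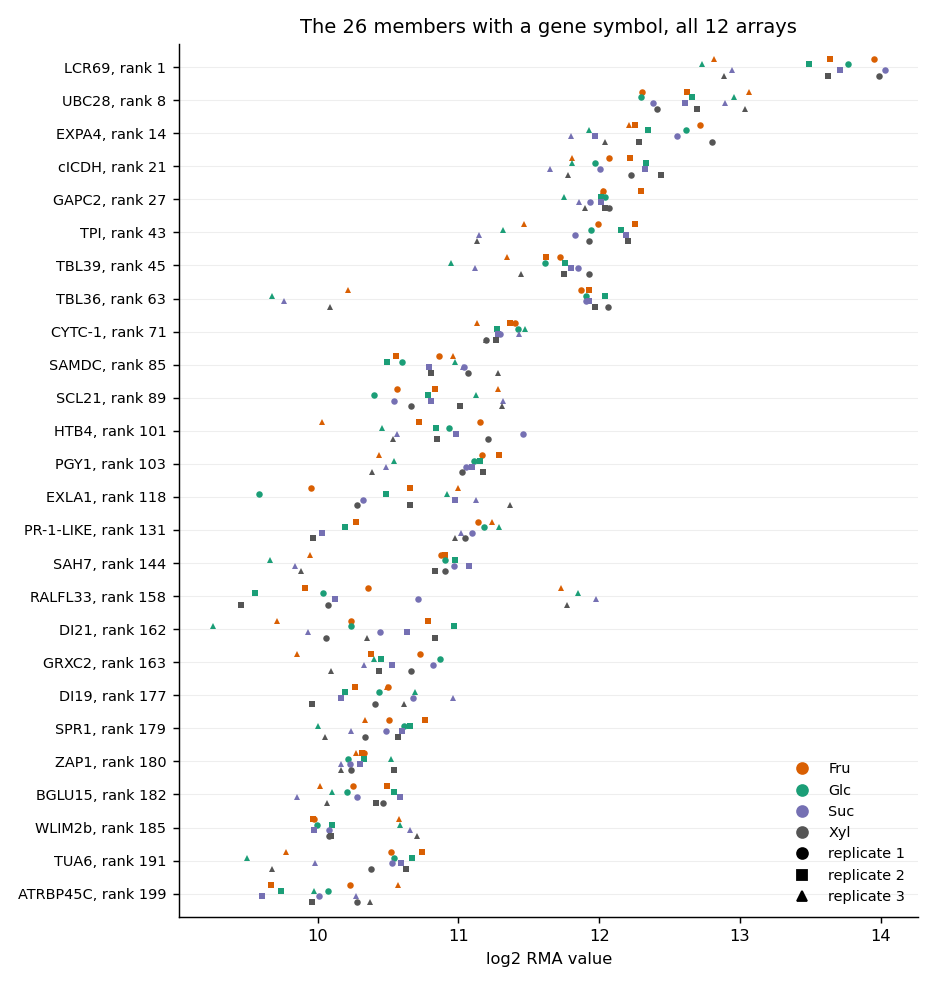
Log2 RMA values (horizontal axis) of the 26 members with a gene symbol on all 12 arrays, with color for the sugar and shape for the replicate number. Most members cluster by shape more than by color, as *LCR69*, whose triangles lie at 12.73 to 12.94 and whose other points lie between 13.49 and 14.03. *CYTC-1* does not, with 2.09% of its variance by replicate number and 35.7% by sugar.

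The replicate number set most of the spread of the members. It accounted for a median of 84.0% of a member's variance over the 12 arrays and the sugar for 6.24%, against 81.3% and 8.14% in the next 200 genes by rank and 54.0% and 14.2% over all probe sets. In 183 of the 200 members the 3 replicate means ranged more widely than the 4 sugar means (91.5%, against 87.5% of the next 200 genes and 69.6% of all probe sets). The median range over the 12 arrays was 0.87, with 34 members under 0.5 (17%) and 10 over 2 (5%). It was 0.93 in the next 200 genes (10.5% and 9%) and 0.72 over all probe sets (24.8% and 6.8%). Replicate 3 was lower than the mean of the others in 132 members and higher in 68, by more than 1 in 17 and 7 of them. Among the next 200 genes it was lower in 117 and higher in 83, by more than 1 in 15 and 15. Of all 22746 probe sets, 10241 were lower and 12505 higher in replicate 3, by more than 1 in 1161 and 1073. The cause of this split was not tested.

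The widest member was AT3G10080 at rank 108. It had 12.79, 12.52 and 7.69 with Fru, 12.95, 12.45 and 7.09 with Glc, 12.87, 12.32 and 7.63 with Suc and 12.74, 12.14 and 7.63 with Xyl. Replicate 3 thus differed from the mean of the other replicates by −5.09 on the log2 scale, while the range of the 4 sugar means was 0.17. The same difference was −2.78 for AT4G39320, −2.36 for AT4G24780, −2.19 for AT3G18280, −2.17 for AT2G01610 and −2.015 for *TBL36*. In the other direction, AT1G62480, AT2G26500 and *RALFL33* were higher in replicate 3, by 1.96, 1.82 and 1.80. The narrowest member was AT1G78040, whose 12 values lay between 12.10 and 12.26, followed by AT5G35530 (range 0.20) and AT1G69840 (range 0.25).

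**Figure D3:**
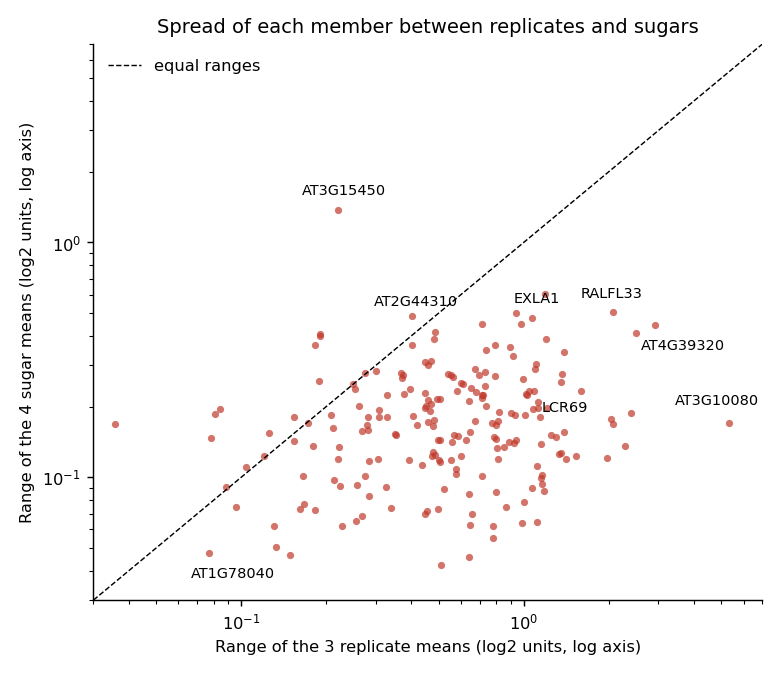
Range of the 4 sugar means (vertical) against the range of the 3 replicate means (horizontal) for the 200 members, both in log2 units on log axes. Below the dashed line of equal ranges lie 183 members, and AT3G15450 stands farthest above it.

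The make-up of the top 200 hardly depended on the sugar. The 200 highest genes by the mean of the 9 Fru, Glc and Suc arrays shared 191 with the 200 chosen on Xyl. By the Fru arrays alone 191 were shared, by the Glc arrays 188 and by the Suc arrays 187. Among single arrays the overlap followed the replicate more than the sugar. A single array of replicate 1 or 2 shared 172 to 178, and one of replicate 3 154 to 158. The Xyl arrays, which chose the members, shared 178, 173 and 158 (replicates 1, 2 and 3). Overlaps of single arrays and of means are unlike measures, and means by replicate number were not ranked. In the top 200 of all 12 arrays were 111 members. The 9 members that leave the list by the 9 sugar arrays fell to ranks 204 to 244, with 1 exception. AT3G15450 stood at rank 165 with Xyl but at rank 375 with Fru, 593 with Glc and 484 with Suc.

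AT3G15450, which the study lists as an aluminium-induced protein, was the member that differed most from Xyl with each of the 3 sugars. It had 9.87, 8.84 and 9.91 with Fru, 9.16, 9.31 and 8.56 with Glc, 9.13, 9.40 and 9.33 with Suc and 10.03, 10.26 and 10.89 with Xyl. Every Fru, Glc and Suc array lay below every Xyl array. On the log2 scale these were differences of −0.85 with Fru, −1.38 with Glc and −1.11 with Suc (standard error 0.33 without the block, 0.28 with it). Since the gene was a member through its Xyl values, these differences are a description. Among the sugars, Fru exceeded Glc by 0.53 (95% interval −0.08 to 1.14 with the block, −0.20 to 1.25 without), and the sign was not the same in all replicates.

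No other member differed from Xyl by more than 0.51. The counts past a threshold that follow for the comparisons with Xyl rest on the arrays that chose the members, so that they list members and test nothing. With Fru, 0 of 200 members passed the unadjusted 0.002 of the methods in limma without the block (0.0835% of all probe sets) and 0 with it (1.09%). With Glc, AT3G15450 passed without the block (0.044% of all probe sets), and AT3G15450 and AT2G44310 with it (1.24%). With Suc, 0 passed without the block (0.0659%), and AT3G15450 and *RALFL33* with it (1.06%).

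*RALFL33* had 10.36, 9.91 and 11.73 with Fru, 10.04, 9.55 and 11.85 with Glc, 10.71, 10.12 and 11.98 with Suc and 10.07, 9.45 and 11.77 with Xyl. Within each replicate number Suc was highest, by 0.51 over Xyl on average and by 0.64, 0.67 and 0.21 within the replicate numbers, while the groups overlapped because replicate 3 stood 1.80 higher. AT2G44310 had 10.12, 10.13 and 10.54 with Fru, 10.50, 10.35 and 11.18 with Glc, 10.41, 10.28 and 11.02 with Suc and 9.96, 9.93 and 10.79 with Xyl. Glc was highest within each replicate number, 0.45 above Xyl and 0.41 above Fru.

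**Figure D4:**
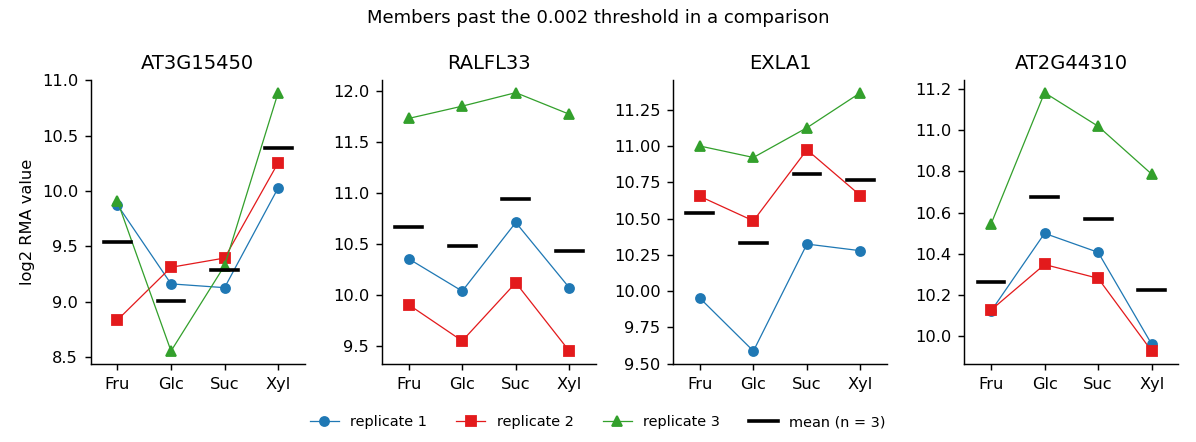
Log2 RMA values by sugar for the 4 members that passed the unadjusted 0.002 in a comparison, without or with the block, with lines joining arrays of a replicate number and bars for the mean of 3 arrays. AT3G15450 is lower with Fru, Glc and Suc than with Xyl on every array, while the lines of *RALFL33* and *EXLA1* lie apart by replicate and that of replicate 3 lies highest in AT2G44310.

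Between the sugars, which did not choose the members, few members passed. For Fru against Glc, 0 of 200 passed 0.002 without the block (0.022% of all probe sets) and AT2G44310 with it (0.44%). For Suc against Glc, 0 passed without the block (0.0572%) and *EXLA1* with it (0.637%). For Suc against Fru, 0 passed without the block (0.0044%) and 0 with it (0.585%). None had an adjusted p under 0.05 in limma in either fit (0% of all probe sets, except 0.0044% for Suc against Glc with the block), with a smallest value of 0.44, 0.28 and 0.32 with the block. At an unadjusted p of 0.05 the members counted 0, 1 and 1 without the block (1.66%, 1.48% and 1.77% of all probe sets) and 10, 20 and 24 with it (8.97%, 7.68% and 11.3%).

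AT2G44310 was 0.41 lower with Fru than with Glc, by 0.38, 0.22 and 0.64 within the replicate numbers (95% interval −0.63 to −0.19 with the block, −1.09 to 0.26 without, adjusted p = 0.44 and 1.00 in limma). *EXLA1* had 9.95, 10.65 and 11.00 with Fru, 9.59, 10.48 and 10.92 with Glc, 10.32, 10.98 and 11.13 with Suc and 10.28, 10.66 and 11.37 with Xyl. Glc was lowest within each replicate number. Suc exceeded Glc by 0.48, and by 0.74, 0.49 and 0.20 within the replicate numbers (95% interval 0.22 to 0.74 with the block, −0.44 to 1.40 without, adjusted p = 0.28 and 1.00 in limma).

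AT2G41410 at rank 44 was the member with arrays apart in 2 comparisons against Glc. It had 11.61, 11.65 and 11.90 with Fru, 11.41, 11.59 and 11.37 with Glc, 11.83, 11.79 and 11.98 with Suc and 11.65, 11.54 and 12.01 with Xyl. All Fru and all Suc arrays lay above all Glc arrays, by 0.26 and 0.41 on average (adjusted p = 0.54 and 0.35 with the block in limma). AT3G52730 at rank 46 had 11.87, 11.82 and 11.35 with Fru, 12.02, 11.90 and 11.79 with Glc, 12.04, 11.96 and 11.88 with Suc and 11.76, 11.71 and 11.58 with Xyl. Its Glc and Suc arrays all lay above its Xyl arrays, by 0.22 and 0.27, and its Suc arrays above its Fru arrays, by 0.28.

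AT4G30010 at rank 54 was another of the 17 members whose sugar means ranged more widely than their replicate means. It had 11.64, 11.57 and 11.63 with Fru, 11.67, 11.71 and 11.70 with Glc, 11.85, 11.65 and 12.04 with Suc and 11.35, 11.40 and 11.69 with Xyl. All Fru arrays lay below all Glc arrays, by 0.08, and below all Suc arrays, by 0.23 (adjusted p = 0.84 and 0.42 with the block in limma). Suc arrays lay above all Glc arrays in AT2G02510 at rank 13 and AT2G04900 at rank 50, by 0.25 and 0.20, and above all Fru arrays in AT5G25170 at rank 40, by 0.25. AT4G34670 at rank 41 went the other way: its Suc arrays lay below all Glc and all Fru arrays, with differences of −0.09 and −0.15. Wide differences between sugars were also reached with overlapping arrays, with 0.60 for Suc against Fru in AT5G54940 and 0.50 for Suc against Glc in AT5G67490 (adjusted p = 0.32 and 0.48 with the block in limma).

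Against Xyl, AT4G26230 at rank 90 had higher values on all Glc and all Suc arrays, by 0.28 and 0.39, and AT4G29735 at rank 129 on all Suc arrays, by 0.40. Lower values on all arrays were found for AT4G27090 with Fru (−0.14), AT3G55430 with Glc (−0.27) and AT5G25280 with Suc (−0.25). Arrays that did not overlap were rare: 1 member was higher and 1 lower for Fru against Glc (2.51% and 2.3% of all probe sets), 6 and 1 for Suc against Glc (1.85% and 3.18%) and 4 and 2 for Suc against Fru (2.3% and 3.44%). Against Xyl they were 0 and 2 with Fru (4.14% and 2.63%), 3 and 2 with Glc (3.68% and 2.59%) and 7 and 2 with Suc (2.95% and 3.26%).

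As a whole, the members stood slightly higher with Suc than with Glc in the deposited values. The median difference was 0.06 on the log2 scale, against 0.00 over all probe sets, and within the replicate numbers it was 0.04, 0.05 and 0.12. Of the 200 members 146 were higher with Suc (48.7% of all probe sets) and 54 lower. In all 3 replicates 68 were higher (13.9% of all probe sets) and 13 lower (15.8%). At an unadjusted p of 0.05 with the block, 18 were higher (3.44% of all probe sets) and 2 lower (4.24%). This direction rests on the scaling. With arrays centered on their median, 164 were higher (53.83% of all probe sets) and 36 lower. But 97 were higher (50.94%) and 103 lower, with a median of −0.01, after cyclic loess. By its construction, cyclic loess levels differences at each signal height. Without Glc replicate 3 alone the median was −0.02, but this leaves Suc with an array of replicate 3 and Glc with none. Without all 4 arrays of replicate 3 the median was 0.034.

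For Suc against Fru the median was 0.03, with 124 members higher (48.1% of all probe sets) and 76 lower. With centered arrays 107 were higher (41.87%) and 93 lower, and after cyclic loess 115 (50.23%) and 85. In the deposited values 69 were higher in all 3 replicates (18.4% of all probe sets) and 32 lower in all 3 (18.3%). At an unadjusted p of 0.05 with the block in limma, 20 were higher (6.32%) and 4 lower (5.01%). The median turned to −0.06 without Fru replicate 3 and −0.01 without Suc replicate 2, each of which unbalances the replicate numbers. Without all 4 arrays of replicate 3 it was 0.015. For Fru against Glc the median was 0.04, with 121 higher (49.28% of all probe sets) and 79 lower. With centered arrays 141 were higher (60.13%) and 59 lower, and after cyclic loess 89 (49.91%) and 111. Relative to Xyl the medians were 0.01 for Fru, −0.03 for Glc and 0.05 for Suc. Higher were 111, 86 and 132 members (50.46%, 51.71% and 50.05% of all probe sets). The same counts were 155, 90 and 141 with centered arrays (63.76%, 54.81% and 58.46% of all probe sets). After cyclic loess they were 89, 100 and 108 (49.91%, 50.05% and 51.11%). With centered arrays the median of all probe sets itself reached 0.05 for Fru against Xyl.

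Most members moved little, as did most probe sets. Between 174 and 196 of the 200 differed by less than 0.25 in a comparison. These were 196 for Fru against Xyl (98%, against 86.9% of all probe sets), 185 for Glc against Xyl (92.5%, against 87.4%) and 193 for Fru against Glc (96.5%, against 89.8%). In the comparisons with Suc the members lay near the share of all probe sets. They counted 177 against Xyl (88.5%, against 88.6%), 180 against Glc (90%, against 91.5%) and 174 against Fru (87%, against 86.8%). A small difference is not a shown absence. With the block, the 95% interval lay within 0.5 of 0 for 171 to 193 of the 200 members per comparison (83.43% to 87.95% of all probe sets). Its median half-width among the members was 0.21. Without the block the interval did so for 57 to 65 of the 200 members, with a median half-width of 0.54. This was a smaller share than the 44.15% to 47.41% of all probe sets. The 3 comparisons with Xyl share the Xyl arrays, and the comparisons between sugars share arrays in the same way.

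**Figure D5:**
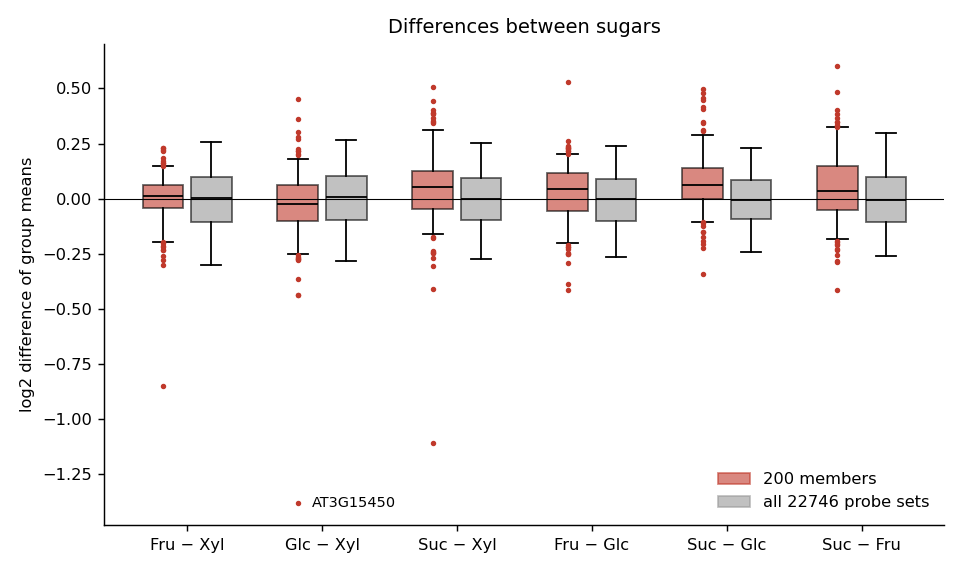
Log2 differences between group means for the 200 members (red) and all 22746 probe sets (gray) in the 6 comparisons, with boxes for quartiles, whiskers for the 5th and 95th percentile and dots for members beyond them. The medians of the members lie between −0.03 and 0.06, and AT3G15450 at −1.38 is the lowest dot.

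What the members shared beyond their signal was read from the reference table of the assembly TAIR10.1. Their genes were 1631 bp long at the median, introns included, and none was over 4000 bp, against a median of 2107 bp and 11.7% over 4000 bp among all 13270 genes. Among the next 200 genes the median was 1950 bp, with 6.5% over 4000 bp. These lengths are a description of the genes in that table and not of the measured transcripts. The members lay on chromosomes 1 to 5 in numbers of 33, 46, 51, 23 and 47, that is 16.5%, 23%, 25.5%, 11.5% and 23.5%, against 25.8%, 16.4%, 20.6%, 14.6% and 22.6% of all genes. All but 1 were protein coding. The exception, AT2G04000, is listed as a pseudogene, and its probe set is the only one of the 200 whose suffix marks probes shared with other transcripts, so its signal cannot be tied to that gene alone.

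Few members were neighbors on a chromosome. In 4 runs of adjacent genes lay 9 members, against 4 runs with 8 genes among the next 200 genes and 3 runs with 6 genes among the 200 after those. *ZAP1*, *SCL21* and AT2G04900 formed the longest run, with Xyl means of 10.32, 10.99 and 11.55. *TPI* lay beside AT3G55430, with 11.75 and 10.22, AT2G01710 beside AT2G01720 and AT2G27710 beside AT2G27720. Only the array signal was read here, and nothing was measured on their promoters.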

How the data were processed

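The authors deposited log2 RMA values of 12 ATH1 arrays, made by RMA, which subtracts background, equalizes the distributions of the arrays by quantiles and summarizes the probes of a set. Affymetrix Expression Console and limma are credited too in the notes of the submitters (version not given in the sources used here). Because of the equalized distributions, a shift shared by all bright transcripts would be reduced. A deposited table of fold changes and p-values holds the authors' own comparisons and was not used. Each column of array values belonged to a sample.

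Without 64 control probe sets, 22746 were fitted in limma 3.58.1 (R 4.3.3), in 1 fit over the 4 sugars with no block (8 residual degrees of freedom). Calls used the methods' unadjusted p of 0.002 and a Benjamini-Hochberg adjusted p under 0.05 over all probe sets. An exact test of 3 arrays against 3 cannot go below 0.1. The script was tested on simulated data. The methods divide the culture between flasks before treatment, and arrays with the same replicate number deviated together (r from 0.772 to 0.938 over 18 pairs, at most 0.154 between different numbers). The number therefore pairs arrays, and values with it as a block (6 residual degrees of freedom) are given where they change a call. P-values measure the spread between these replicates, which the methods call biological, of 1 culture line.

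The platform's annotation named 1 gene for 13513 of the probe sets, several for 503 and none for 8730. Of the first, 13507 had an entry in the reference table (71 by name), 69 were plastid and 18 mitochondrial, which left 13420 probe sets of 13270 nuclear genes. No coordinates are given, since the files name no assembly, and no sequences were used here. Genes named are the 10 brightest members, those at the edge, all members with a symbol, those past 0.002, and the largest differences whose arrays do not overlap. The widest and narrowest members are named too. Others fall outside these rules, such as AT5G54940 and AT5G67490, whose arrays overlapped, and AT1G62480 and AT2G26500, which were higher in replicate 3. The members, gene lists and tests were chosen with earlier results of these data known, and the patterns that sort genes by name were corrected after their matches were seen.

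Alternatives were the block, the methods' t-test, fits of 6 arrays, a trended variance, a filter on dim probe sets, 2 other scalings, probe sets specific to 1 gene, other rules of membership and each array left out. The arrays without replicate 3, with the block, were added after seeing the data. Arrays give no read depth, and their number limits the precision.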

Additional observations from a re-analysis of the deposited data

Results flagged for a closer look

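Differences between sugars passed the unadjusted 0.002 in limma for AT2G44310 and *EXLA1*, when the fit held the replicate number as a block, but not otherwise. AT2G44310 was lower with Fru than with Glc, with a log2 difference of −0.412, in 3 of 3 replicate numbers. *EXLA1* was higher with Suc than with Glc by 0.478, also in 3 of 3. Neither had an adjusted p under 0.05 in limma.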

How the results depend on the processing

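The count of members past 0.002 was 1 for Glc against Xyl and 0 in the other comparisons. The replicate block gave 2 for Glc against Xyl, 2 for Suc against Xyl, 1 for Fru against Glc and 1 for Suc against Glc, and changed no other count. The Glc count against Xyl, which is a description since the Xyl arrays chose the members, consists of AT3G15450 and was 0 with the methods' t-test, with only the 6 arrays compared, with centered arrays, with cyclic loess, without the 4 arrays of replicate 3, with the 100 highest genes and with members chosen by all 12 or by the 9 sugar arrays. In the last 3 cases AT3G15450 is no longer a member. Leaving out each array in turn gave 0 to 1 members for Glc against Xyl and for Suc against Xyl and 0 in the other comparisons. The count with Glc stayed at 1 only without Fru replicate 2, Fru replicate 3 or Xyl replicate 1, and the 1 with Suc came without Fru replicate 2. Without replicate 3 and with the block, 3 members passed for Suc against Xyl and 3 for Suc against Glc.

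The median difference of the members for Fru against Glc was 0.043 and became 0.083 with centered arrays, −0.011 after cyclic loess, 0.031 without replicate 3, 0.024 as a mean, 0.027 with members chosen by all 12 or by the 9 sugar arrays and 0.027 with the 400 highest genes. For Suc against Glc, cyclic loess gave −0.0051. With each array left out the medians ranged between −0.066 and 0.105 for Fru against Xyl, −0.092 and 0.072 for Glc against Xyl, −0.0099 and 0.117 for Suc against Xyl, −0.064 and 0.113 for Fru against Glc, −0.022 and 0.139 for Suc against Glc and −0.055 and 0.112 for Suc against Fru. The sign turned in 13 of these 72 medians, so no median is a firm direction. The 72 include medians that could not change, because the array left out belonged to neither group compared. For Fru against Xyl, the median stayed at 0.01076 whichever Glc or Suc array was left out. The share of 13 in 72 is therefore lower than the share among the medians that could change. Turns came without Fru replicate 1 (−0.013), Fru replicate 2 (−0.066) or Xyl replicate 3 (−0.055) for Fru against Xyl, without Glc replicate 3 (0.072) or Xyl replicate 2 (0.024) for Glc against Xyl, and without Suc replicate 2 (−0.0099) or Xyl replicate 3 (−0.0041) for Suc against Xyl. They also came without Fru replicate 1 (−0.0032), Fru replicate 2 (−0.017) or Glc replicate 3 (−0.064) for Fru against Glc, without Glc replicate 3 (−0.022) for Suc against Glc, and without Fru replicate 3 (−0.055) or Suc replicate 2 (−0.011) for Suc against Fru. Leaving out 1 array also unbalances the replicate numbers. The causes of the other changes were not tested. No member was below the median of an array, but the choice of the highest signals made this all but certain. That median is also no measure of background. A limit is set by the 3 arrays per sugar.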
